A study of Mus musculus with 2 samples.

Results

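Subcluster 14 was a small group of dividing CD8 T cell-like cells in a mouse tumour sort. It held 80 of the 5976 cells, and its members were the cells to which the authors' clustering at resolution 0.8 gave the number 14. The cells were sorted as CD45+JAML+ from B16F10 tumours, a transplantable mouse melanoma, and were sequenced as 1 gene expression library with 10x Genomics 5' v2 chemistry. A second library of antibody tags assigned the cells to 3 mice, here mice 1, 2 and 3. The tag names of all 3 mice read B16F10 and isotype CTRL, so the cells analysed here form 1 experimental group, the isotype control. The labels give neither strain nor age. Every cell had passed a sort for JAML, a junctional adhesion molecule-like receptor of leukocytes, so cells without the protein were not sampled. Calls and log2 differences of genes were made between classes of cells of the same mouse.

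A T cell that divides first copies its DNA in S phase. Enzymes that make and use deoxynucleotides are transcribed for this, and so are the histones that package the new strands. It then passes through G2 into mitosis, where cyclin B drives entry, spindle and kinetochore proteins move the chromosomes, and the anaphase-promoting complex with its activator Cdc20 releases the sister chromatids. In tumours, activated CD8 T cells that carry the receptor PD-1 (gene Pdcd1) commonly include a dividing fraction, which is usually found by Mki67, the proliferation antigen Ki-67. Most histone messages of S phase end in a stem-loop in place of a poly(A) tail. The labels give polyA RNA as the molecule, so the levels of these genes are those of transcripts that this chemistry captured.

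The 80 cells were spread unevenly over the mice, with 58 from mouse 1, 9 from mouse 2 and 13 from mouse 3. They were 2.37% of the tagged cells of mouse 1 (exact 95% interval 1.81 to 3.06), 0.760% of mouse 2 (0.348 to 1.44) and 0.556% of mouse 3 (0.296 to 0.949). The interval of mouse 1 lay above those of mice 2 and 3. All 80 cells fell into the cluster that the authors named by Pdcd1, of which they made up 10.5% in mouse 1, 5.77% in mouse 2 and 8.90% in mouse 3. That cluster consisted almost wholly of 3 subclusters, number 14, number 8 with 327 cells and number 5 with 449 cells. At the coarser resolution of 0.4, 78 cells of subcluster 14 joined 244 cells of subcluster 8 in a cluster of 324 cells. The other 2 cells joined 82 cells of subcluster 8 and 447 of subcluster 5. Over 4922 genes, the profile of subcluster 14 was most like that of subcluster 8 (Pearson's r 0.966 across genes, a description), then subcluster 5 (0.952) and subcluster 1 (0.912). Without the genes of the cell cycle lists the same order held over 4816 genes, with r of 0.975, 0.964 and 0.930.

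Pooled over mice, depth per cell lay near that of subcluster 8, but it was lower in mouse 1 and higher in mice 2 and 3. The median total of unique molecular identifiers (UMIs, the count of captured transcripts) was 24090 per cell in subcluster 14, against 27482 in subcluster 8 and 14439 in all cells. In mice 1, 2 and 3 the medians of subcluster 14 were 23635, 30975 and 24093, and those of subcluster 8 were 30791, 27515 and 17552. The median share of mitochondrial UMIs was 2.06% in subcluster 14 and 2.2% in subcluster 8. Values per mouse below are CPM, the UMIs of all cells of a class in that mouse added up and scaled to a common depth. They rest on 1409047 UMIs of subcluster 14 in mouse 1, 261007 in mouse 2 and 308359 in mouse 3. No caller of doublets was run, and the 5976 barcodes of the library were all distinct.

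Because the clusters were cut from these same expression values, no p-value is given for any difference between them, and every gene difference here is a description. A gene was called higher or lower when the log2 difference of CPM plus 10 was at least 1 (2-fold) in the same direction in mice 1 and 3. Mouse 2 held only 9 cells of subcluster 14, so its values are printed but did not enter the calls or means. Differences below are means over mice 1 and 3 on that log2 scale. The CPM ratios and the 95% intervals beside them were taken from the summed UMIs of mice 1 and 3, without pairing by mouse. The intervals cover counting error only and not the spread between mice.

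The markers of a dividing CD8 T cell were present in these cells. Cd8a, the alpha chain of the CD8 coreceptor, stood at 742, 904 and 571 CPM in subcluster 14 of mice 1, 2 and 3, against 231, 241 and 218 CPM in all other cells. Cd4 stood at 1.42, 3.83 and 0 CPM, and 2 of the 80 cells had a Cd4 UMI. In 75 of the 80 cells there were UMIs of Cd8a or Cd8b1 and of a Cd3 chain and none of Cd4. In the plasmacytoid dendritic cell-like cluster this held for 92 of 1317 cells, of which cluster 843 cells had a Cd4 UMI. A UMI of Cd8a was found in 96.2% of the cells of subcluster 14 and 34.2% of that cluster, one of Cd8b1 in 96.2% and 51.6%, and one of Cd3e in 97.5% and 6.61%. Thinned to 12607 UMIs per cell, the shares were 97.3% and 32.4% for Cd8a, 96.0% and 52.2% for Cd8b1, and 98.7% and 6.05% for Cd3e. Mki67 was detected in 93.8% of the cells of subcluster 14 (exact 95% interval 86.0 to 97.9), against 93.0% in subcluster 8 and 39.2% in subcluster 5. In the plasmacytoid cluster, which should lack it, 4.4% of cells had a Mki67 UMI at a median depth of 13486 UMIs. Pdcd1 was detected in 90.0% of the cells of subcluster 14, against 77.1% in subcluster 8, 96.9% in subcluster 5 and 3.04% in the plasmacytoid cluster. Thinned to 12607 UMIs per cell, which left out 5 cells of subcluster 14, the Mki67 shares were 85.3%, 93.0%, 30.4% and 4.07%. The Pdcd1 shares at that depth were 92.0%, 74.3%, 94.9% and 2.79%.

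Against subcluster 8, 6 of the 2998 genes compared were higher in subcluster 14 (0.2% of all genes compared) and 71 were lower (2.37%). All 6 higher genes and 52 of the 71 lower genes also passed in mouse 2. On mouse 1 alone 14 genes were higher and 92 lower, and on mouse 3 alone 96 and 182. The median difference over all genes compared was 0.01. Of the 6 higher genes, 3 belonged to the list of G2 and M phase genes. Of the 71 lower genes, 18 were clustered histones, 18 were S phase genes, 2 were G2 and M phase genes and 33 were in none of these lists.

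**Figure D1:**
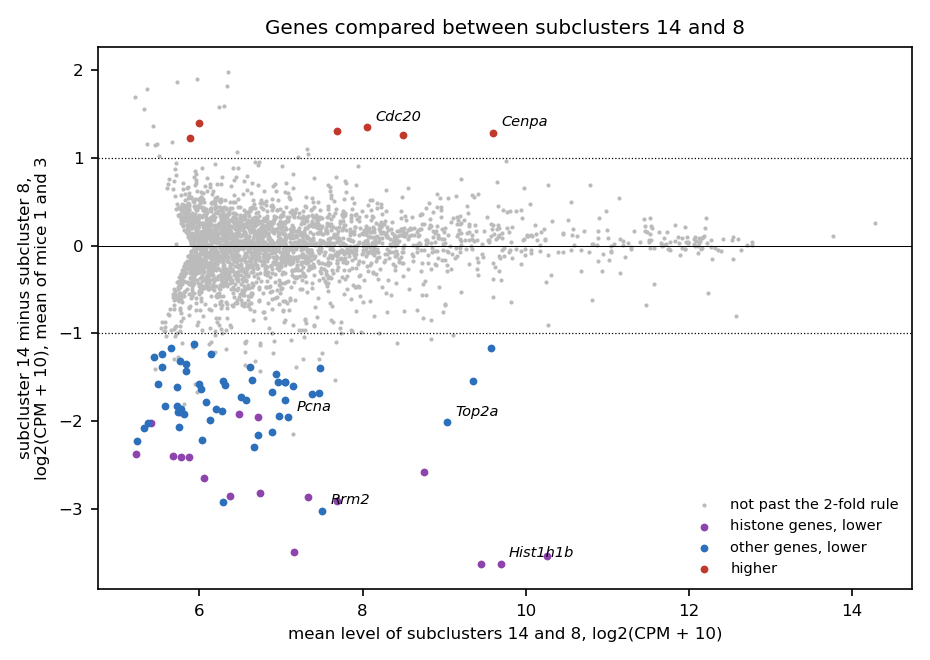
Log2 difference of CPM plus 10 between subcluster 14 and subcluster 8 (vertical axis, mean of mice 1 and 3) against mean level (horizontal axis, log2 of CPM plus 10) for 2998 genes, each point 1 gene. Coloured points passed the 2-fold rule in both mice, 6 above and 71 below, and the lowest of them were clustered histones.

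The 3 higher genes of mitosis were Cdc20, Ccnb2 and Cenpa. Cdc20, the activator of the anaphase-promoting complex, stood at 305, 345 and 441 CPM in subcluster 14 of mice 1, 2 and 3, against 121, 120.5 and 158 CPM in subcluster 8. Each mouse's value in subcluster 14 lay above all 3 of subcluster 8. The difference was 1.35, and the ratio was 2.53 (2.28 to 2.81). Ccnb2 encodes cyclin B2, a partner of the mitotic kinase Cdk1. Its levels were 469, 452 and 529 CPM in subcluster 14, against 185, 188 and 219 CPM in subcluster 8, a difference of 1.27 and a ratio of 2.48 (2.27 to 2.70). Cenpa, the histone H3 variant that marks centromeres, stood at 957, 1260.5 and 1232 CPM in subcluster 14, against 431, 413 and 446 CPM in subcluster 8. Its difference was 1.29 and its ratio 2.32 (2.18 to 2.46). The groups did not overlap between mice for these 3 genes, which were picked because they had passed the rule. The share of all genes compared that separated in this way is not given. Here and below, a lack of overlap therefore only describes the genes named.

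These levels were not carried by a few cells. Ccnb2 and Cenpa had UMIs in all 80 cells of subcluster 14 and Cdc20 in 73 of them. The cell with most UMIs held 3.96% of the Cdc20, 2.87% of the Ccnb2 and 3.65% of the Cenpa UMIs. Cdc20 was detected in 91.2% of the cells of subcluster 14, against 64.5% in subcluster 8, 12.7% in subcluster 5 and 2.35% in the plasmacytoid cluster. Thinned to 12607 UMIs the shares were 89.3% in subcluster 14, 50.7% in subcluster 8 and 8.10% in subcluster 5. Over the 16 subclusters, averaged over mice with at least 10 cells, Cdc20 was highest in subcluster 14 at 373 ± 96.1 CPM (SD, n = 2 mice). Subcluster 8 followed at 133 ± 21.5 CPM and subcluster 11 at 103 ± 29.2 CPM (n = 3 each), whose spreads overlapped each other. Ccnb2 and Cenpa were also highest in subcluster 14, at 499 ± 42.1 and 1095 ± 195 CPM, with subcluster 8 at 197 ± 19.3 and 430.0 ± 16.3 CPM. Cdc20 passed the rule under all 16 alternative settings, with differences between 1.06 and 1.43. Ccnb2 and Cenpa passed under 15 of 16. They failed it when only those cells of subcluster 8 were used that shared a cluster with most of subcluster 14 at resolution 0.4, with mean differences of 0.97 and 1.01.

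Promoter windows are shown for these 3 genes and for 2 of the S phase genes described below, Rrm2 and Clspn, since the 2 sets stood on opposite sides of the comparison. They are RefSeq windows of the GRCm38.p6 build, 250 bases before to 50 bases after the start, 5′ to 3′ on the gene's strand. Capitals mark 3 motifs searched on both strands. These were the cell cycle homology region (TTTGAA), the CCAAT box (CCAAT) and the E2F motif (TTTCCCGC, TTTGGCGC, TTTCGCGC or TTTGCCGC).
Cdc20, chr4:118437294-118437593, minus strand: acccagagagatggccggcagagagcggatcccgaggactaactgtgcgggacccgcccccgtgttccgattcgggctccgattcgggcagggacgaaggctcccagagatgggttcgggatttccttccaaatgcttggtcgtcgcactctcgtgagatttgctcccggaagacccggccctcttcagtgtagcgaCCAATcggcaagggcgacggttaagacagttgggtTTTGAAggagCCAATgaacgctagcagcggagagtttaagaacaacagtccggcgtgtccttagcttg
Ccnb2, chr9:70421505-70421804, minus strand: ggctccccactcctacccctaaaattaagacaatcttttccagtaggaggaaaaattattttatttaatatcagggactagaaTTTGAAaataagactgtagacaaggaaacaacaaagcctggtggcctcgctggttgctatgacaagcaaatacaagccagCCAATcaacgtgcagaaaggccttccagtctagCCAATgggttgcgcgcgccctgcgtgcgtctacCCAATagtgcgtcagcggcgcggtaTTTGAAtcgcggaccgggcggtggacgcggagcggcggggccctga
Cenpa, chr5:30666636-30666935, plus strand: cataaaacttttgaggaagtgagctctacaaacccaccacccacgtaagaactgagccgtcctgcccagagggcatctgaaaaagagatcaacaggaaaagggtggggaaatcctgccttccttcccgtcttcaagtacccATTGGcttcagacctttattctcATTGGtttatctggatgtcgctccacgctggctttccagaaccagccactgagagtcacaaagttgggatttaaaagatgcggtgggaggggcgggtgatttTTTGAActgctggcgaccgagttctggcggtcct
Rrm2, chr12:24708004-24708303, plus strand: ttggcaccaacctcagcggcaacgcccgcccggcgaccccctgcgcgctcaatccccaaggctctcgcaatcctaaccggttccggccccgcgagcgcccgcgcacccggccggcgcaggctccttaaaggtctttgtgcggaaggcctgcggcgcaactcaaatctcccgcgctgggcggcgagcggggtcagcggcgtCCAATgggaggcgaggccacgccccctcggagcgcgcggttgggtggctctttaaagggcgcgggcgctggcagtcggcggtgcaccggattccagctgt
Clspn, chr4:126556730-126557029, plus strand: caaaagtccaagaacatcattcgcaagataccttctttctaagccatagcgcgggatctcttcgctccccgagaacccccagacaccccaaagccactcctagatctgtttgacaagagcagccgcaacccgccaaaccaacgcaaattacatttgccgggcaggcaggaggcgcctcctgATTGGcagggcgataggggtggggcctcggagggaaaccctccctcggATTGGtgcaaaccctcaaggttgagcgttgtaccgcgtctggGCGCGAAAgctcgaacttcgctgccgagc

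The windows of Cdc20, Ccnb2 and Cenpa held 1, 2 and 1 copies of TTTGAA, and 2, 3 and 2 CCAAT boxes. No E2F motif was found in them. The Rrm2 window held 1 CCAAT box and neither other motif, and the Clspn window held 2 CCAAT boxes and 1 E2F motif. Of the 38 G2 and M phase genes that were higher in subcluster 14 than in subcluster 5, 35 had a window. TTTGAA was in 77.1% of these 35 windows, against 17.9% of all 32851 windows, and a CCAAT box was in 80%, against 37.4%. An E2F motif was in 5.71% of them, against 2.26% of all windows. Over the 14219 windows of genes in the matrix the 3 shares were 12.9%, 37.4% and 3.66%. Of the 71 genes lower than in subcluster 8, 44 had a window, and none of those was a clustered histone. An E2F motif was in the windows of 15 of these 44 genes (34.1%), TTTGAA in 10 (22.7%) and a CCAAT box in 31 (70.5%). Over the 11212 genes of the matrix with a window these shares were 4.4%, 15.1% and 42.4%, and over all RefSeq genes with a window 2.61%, 20.2% and 41.1%. A match is a description of the letters and not evidence of binding.

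The other 3 higher genes had no role in mitosis by these lists. Dap, a death-associated protein that restrains autophagy, stood at 281, 310.3 and 282 CPM in subcluster 14, against 90.5, 130.1 and 129 CPM in subcluster 8. The difference was 1.30 and the ratio 2.80 (2.49 to 3.14), and the groups did not overlap. Dap was also higher than in subcluster 5, where it stood at 126, 136 and 121 CPM, a difference of 1.12. Against all other cells it did not pass, with 151, 140.5 and 168 CPM there and a difference of 0.78. Cd9, a tetraspanin of the cell surface, stood at 44.7, 99.6 and 101 CPM in subcluster 14, against 13.2, 23.7 and 37.3 CPM in subcluster 8 (difference 1.23, ratio 2.81, 2.14 to 3.66). Its UMIs came from 36 of the 80 cells. The cell with most held 12.7%, 50% and 35.5% of the Cd9 UMIs of mice 1, 2 and 3. Removal of that mouse 3 cell alone was not tested. Cd9 did not pass against subcluster 5, at 28.6, 51.8 and 62.3 CPM. The sixth gene was the long noncoding RNA Gm17745, at 73.8, 49.8 and 90.8 CPM in subcluster 14 and 29.9, 18.6 and 20.4 CPM in subcluster 8 (difference 1.40). When cells of subcluster 8 were matched on UMIs, Dap, Cd9 and Gm17745 no longer passed in both mice. Their mean differences were then 1.16, 0.99 and 1.23. Dap stood at 1.41 in mouse 1 and 0.90 in mouse 3.

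Further mitotic genes were above subcluster 8 in each mouse but did not pass the rule. Cdkn3, a phosphatase that acts on cyclin-dependent kinases, stood at 163, 199 and 256 CPM in subcluster 14, against 87.2, 84.6 and 92.9 CPM in subcluster 8. Its difference was 0.83 in mouse 1 and 1.37 in mouse 3. Knstrn, a spindle and kinetochore adaptor, was at 169.6, 234 and 208 CPM, against 85.2, 82.0 and 91.3 CPM, with 0.92 in mouse 1. For both, the groups did not overlap. Ccnb1, the gene of cyclin B1, was at 131, 203 and 214 CPM in subcluster 14, against 95.6, 113 and 86.2 CPM in subcluster 8, a difference of 0.42 in mouse 1 and 1.22 in mouse 3. Gm17745 and Dap lay just inside the rule on the higher side, with a smaller difference of 1.07 and 1.08. Scd2 lay just outside, with 0.997, and so did Acsl5 with 0.94.

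The list of G2 and M phase genes as a whole stood level with subcluster 8. Of its 56 genes 47 were compared, of which 3 were higher and 2 lower, with a median difference of -0.12. The summed level of the list was 13364, 16789 and 17467 CPM in subcluster 14 of mice 1, 2 and 3, against 13865, 12949.6 and 15846 CPM in subcluster 8. Within the list the genes pointed in different directions. Ube2c, the ubiquitin-conjugating enzyme of the anaphase-promoting complex, stood at 503, 1126 and 1226 CPM in subcluster 14, against 631, 513 and 697 CPM in subcluster 8, lower in mouse 1 and higher in mice 2 and 3. Cenpf, a kinetochore protein, was at 244, 387 and 441 CPM, against 273, 277 and 437 CPM.

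Top2a and Cbx5 were the 2 lower genes of this list. Top2a, the topoisomerase that untangles replicated chromosomes, stood at 132, 314 and 285 CPM in subcluster 14, against 759.8, 673 and 874 CPM in subcluster 8. Its ratio was 0.202 (0.178 to 0.228). The log2 difference was -2.44 in mouse 1 and -1.58 in mouse 3, a spread that this interval does not cover. Cbx5, the heterochromatin protein HP1 alpha, was at 49.0, 38.3 and 19.5 CPM, against 130.3, 120.5 and 125 CPM. Mki67 stood at 268, 310.3 and 369.7 CPM in subcluster 14, against 520.1, 485 and 638 CPM in subcluster 8. Its difference of -0.85 did not pass the rule, although no mouse of subcluster 14 reached the lowest of subcluster 8. Over the 16 subclusters Mki67 was highest in subcluster 8 at 548 ± 80 CPM, then subcluster 11 at 336 ± 31.3 CPM (n = 3 each) and subcluster 14 at 319 ± 72.2 CPM (n = 2). The values of subclusters 11 and 14 overlapped within their SDs.

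**Figure D2:**
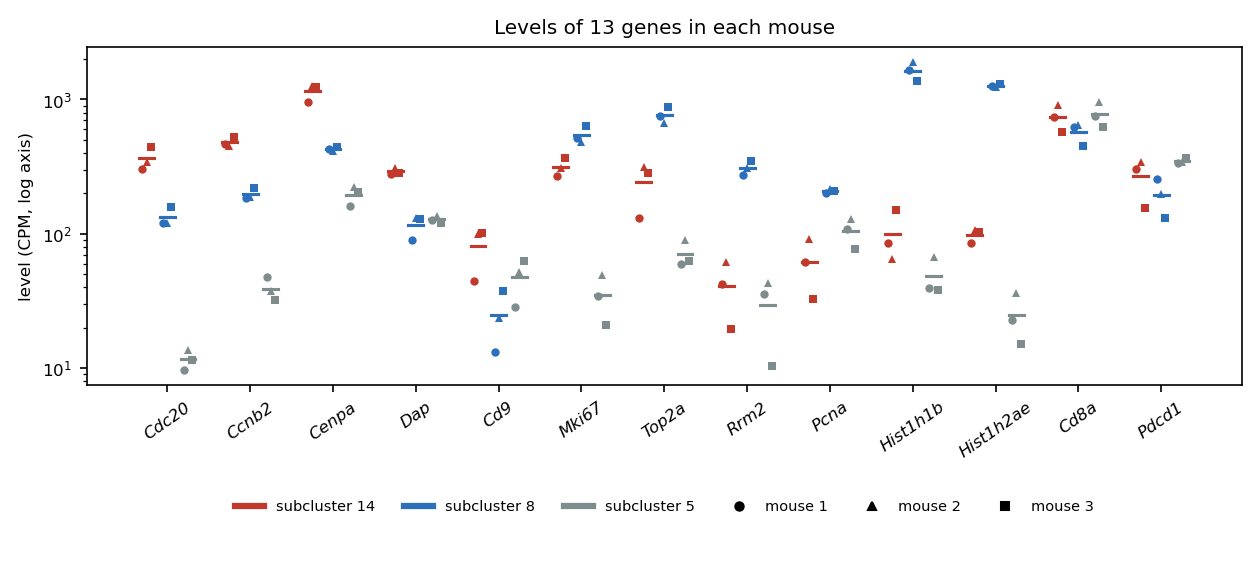
Levels in CPM (log axis) of 13 genes in subclusters 14, 8 and 5, each point 1 mouse and each bar the mean of all 3 mice, mouse 2 with its 9 cells of subcluster 14 included, unlike the means in the text. Cdc20, Ccnb2 and Cenpa were highest in subcluster 14, the histone and S phase genes stood highest in subcluster 8, and Cd8a and Pdcd1 of subclusters 14 and 8 overlapped.

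The largest gaps were in the clustered histone genes, which encode the histones of replicating chromatin. Of 62 such genes in the matrix 21 were compared, and 18 of them were lower in subcluster 14, with a median difference of -2.41. None was higher. Against subcluster 5 only 6 of these genes reached the minimum level for comparison. Most of the 21 were thus compared here only through their level in subcluster 8, which largely fixed the direction. Of the 18 lower genes, 16 lay on chromosome 13 between positions 21722044 and 23764406 and 2 on chromosome 3 between 96220361 and 96270132 (GRCm38). The summed level of all 62 genes was 1127, 973 and 1047 CPM in subcluster 14 of mice 1, 2 and 3. In subcluster 8 it was 9065, 9151 and 8525 CPM. Hist1h1b, a linker histone H1, stood at 85.2, 65.1 and 149 CPM in subcluster 14, against 1667, 1889.5 and 1367 CPM in subcluster 8. The difference was -3.63 and the ratio 0.0609 (0.0519 to 0.0709). Hist1h2ap, a histone H2A gene, was at 202, 180.1 and 169 CPM, against 2321, 2311 and 2185 CPM. Hist1h2ae, also an H2A gene, was at 85.2, 107 and 104 CPM, against 1268, 1242 and 1298 CPM, a difference of -3.64. Many histone genes have nearly identical copies whose reads cannot be assigned with certainty and the single values are uncertain beside their sum. Of the 62 genes, 5 had no UMI in subcluster 14.

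The histones stood above those of subcluster 5, in which Mki67 was low. Subcluster 5 had summed levels of 532, 625 and 408 CPM in mice 1, 2 and 3, below subcluster 14 in every mouse. Hist1h1b was detected in 58.8% of the cells of subcluster 14, against 88.4% in subcluster 8, 28.1% in subcluster 5 and 5.92% in the plasmacytoid cluster. Thinned to 12607 UMIs the first 3 shares were 45.3%, 90.0% and 21.8%.

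S phase genes were lower in the same cells. Of 46 genes in the list 34 were compared, 18 were lower in subcluster 14 than in subcluster 8 and none was higher, with a median difference of -1.57. Against subcluster 5 only 19 reached the minimum level. Many of the 34 were thus compared here only through their level in subcluster 8, which largely fixed their direction. The summed level was 2279, 2456 and 1148 CPM in subcluster 14, against 5218, 5729 and 5562 CPM in subcluster 8. In subcluster 5 it was 2763, 3001 and 1887 CPM, above subcluster 14 in every mouse. The median share per cell went the other way, at 0.130% of a cell's UMIs in subcluster 5 and 0.185% in subcluster 14. By mouse it was 0.123%, 0.165% and 0.112% in subcluster 5, against 0.212%, 0.266% and 0.106% in subcluster 14, so mouse 3 differed. Rrm2, the regulated subunit of ribonucleotide reductase, stood at 42.6, 61.3 and 19.5 CPM in subcluster 14, against 276, 309.6 and 346 CPM in subcluster 8. Its difference was -3.02 and its ratio 0.130 (0.101 to 0.167). Rrm2 was detected in 51.2% of the cells of subcluster 14, against 89.3% in subcluster 8, 25.8% in subcluster 5 and 1.97% in the plasmacytoid cluster. Thinned, the first 3 shares were 33.3%, 89.7% and 18.2%. Clspn encodes claspin, which couples the replication fork to the checkpoint kinase. It was at 30.5, 26.8 and 25.9 CPM in subcluster 14, against 137, 161 and 188 CPM in subcluster 8, and differed by -2.16. Pcna, the sliding clamp of DNA polymerase, was at 61.7, 92.0 and 32.4 CPM, against 201, 215 and 208 CPM (-1.96). Prim1, the primase subunit, differed by -1.99. These 4 genes were picked for the largest differences in the list, so the lack of overlap between the groups in each of them is a description only.

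Among lower genes outside these lists was Esco2, an acetyltransferase that joins sister chromatids during replication. It stood at 6.39, 7.66 and 9.73 CPM in subcluster 14, against 107, 106 and 149.5 CPM in subcluster 8, a difference of -2.93. Tuba1b, an alpha tubulin, was at 479.8, 732 and 438 CPM, against 1024, 888 and 1067 CPM. Its difference in mouse 2 was -0.28, against a mean of -1.17 over mice 1 and 3, and 1 of 16 spindle, actin and tubulin genes compared passed, Tuba1b. Its difference was -0.98 over pooled mice and -0.87 with mouse 2 included in the rule, and it passed in neither. Hspa1b, an inducible Hsp70 chaperone, was at 4.26, 15.3 and 45.4 CPM, against 62.6, 9.61 and 119 CPM. It went the other way in mouse 2, and only 9 of the 80 cells had a UMI, with 54.2% of its UMIs in 1 cell. It passed under 11 of 16 alternative settings. On the lower side Mcm5 and Rrm1 lay just inside the rule, with a smaller difference of -1.04 and -1.01, and Aurkb just outside with -0.9996.

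Cell by cell the separation from subcluster 8 was uneven. The histones took a median of 0.0929% of a cell's UMIs in subcluster 14 (lowest 0, highest 0.331), against 0.866% in subcluster 8 (0 to 2.55). The S phase list took 0.185% in subcluster 14 (0.0389 to 0.530), against 0.560% in subcluster 8 (0.0864 to 1.29) and 0.130% in subcluster 5 (0.0164 to 0.792). All 80 cells lay below the median of subcluster 8 for both lists. The G2 and M phase list took 1.25% in subcluster 14 (0.505 to 2.91) and 1.23% in subcluster 8 (0.138 to 4.70), against 0.163% in subcluster 5 (0.0402 to 1.04). All 80 cells lay above the median of subcluster 5 for that list, and 59 lay above its highest cell. In mice 1, 2 and 3 the histone medians were 0.1004%, 0.0745% and 0.0833% in subcluster 14, against 0.906%, 0.864% and 0.777% in subcluster 8.

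**Figure D3:**
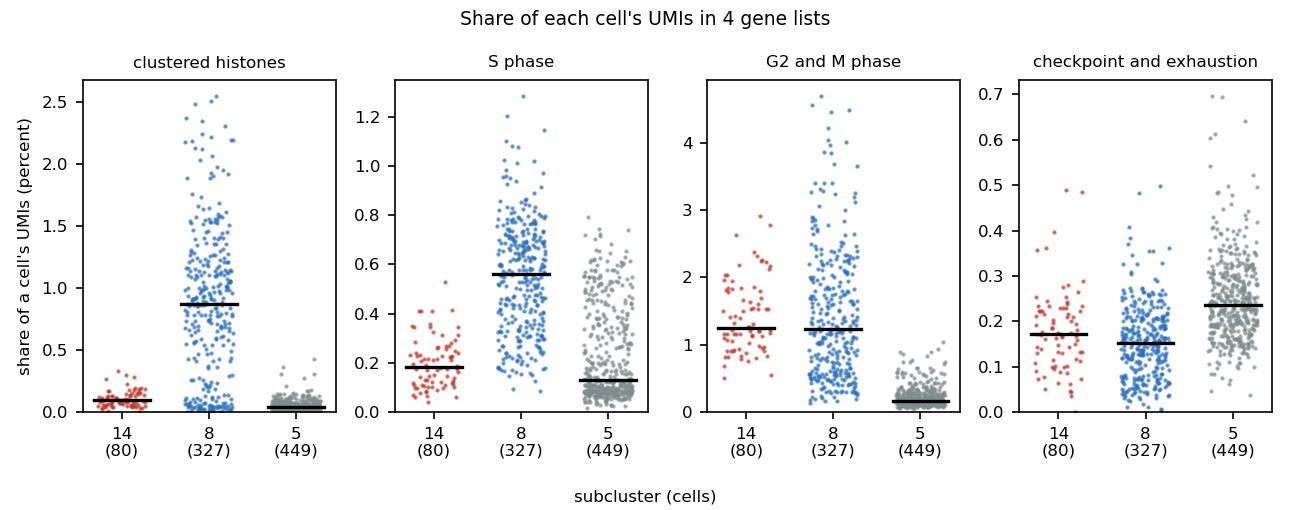
Share of each cell's UMIs (percent) in 4 gene lists for the cells of subclusters 14, 8 and 5, each point 1 cell and each line the median. Subcluster 14 stood with subcluster 8 for the G2 and M phase list (medians 1.25% and 1.23%) and well below it for the histones (0.0929% and 0.866%).

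The range of subcluster 8 covered that of subcluster 14 for the histones and for G2 and M phase. In subcluster 8, 82 of 327 cells had a histone share at or below the highest of subcluster 14. Of these, 35 also had a G2 and M phase share at or above the lowest of subcluster 14, and 13 of the 35 also had an S phase share at or below its highest. In subcluster 5, 31 of 449 cells reached the lowest G2 and M phase share of subcluster 14, and 24 of them fell within its bounds for the other lists too. Cells with this combination of values were therefore also found outside subcluster 14. Within the 80 cells, pooled over mice, the S phase share followed the cell's total UMIs with a Spearman's rho of 0.40. The rho of the G2 and M phase share was 0.13 and that of the histones 0.19. These values describe cells of 1 library, and differences between mice were not removed from them.

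**Figure D4:**
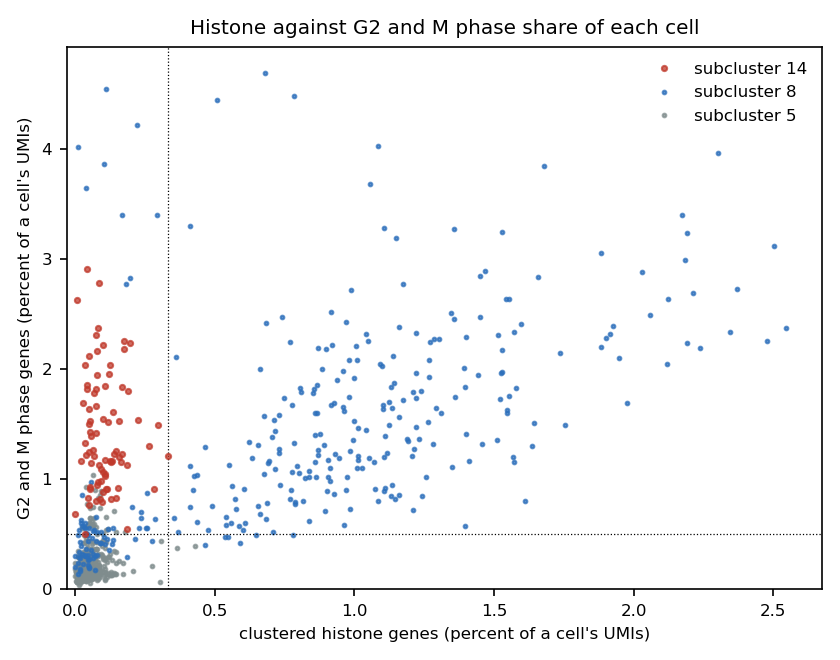
Histone share (horizontal axis) against G2 and M phase share (vertical axis) of each cell's UMIs, in percent, for subclusters 14, 8 and 5. Dotted lines mark the highest histone share (0.331%) and the lowest G2 and M phase share (0.505%) of subcluster 14, and 35 cells of subcluster 8 lie in the same corner.

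T cell state genes were compared with subcluster 8 by list. Over all genes compared only 0.2% were higher and 2.37% lower. The lack of a call in lists this short therefore says little about T cell state. No gene passed the rule among 15 CD8 T cell genes compared (median difference 0.17), 9 checkpoint and exhaustion genes (0.07), 13 cytotoxicity genes (0.24) or 9 chemokine and chemokine receptor genes (0.21). None passed among 7 stem-like and memory genes (-0.07), 8 tissue residency genes (0.14), 9 costimulation genes (0.18), 7 NK receptors (0.18) or 18 interferon response genes (0.12). The same held for 76 oxidative phosphorylation genes (0.03), 16 glycolysis and hypoxia genes (0.25) and 84 ribosomal protein genes (0.03). Of 13 heat shock genes, Hspa1b alone passed (list median -0.22). The median over all genes compared was 0.01.

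Pdcd1 stood at 302, 345 and 156 CPM in subcluster 14 of mice 1, 2 and 3, against 256, 199 and 131 CPM in subcluster 8, and the groups overlapped. Havcr2, the inhibitory receptor Tim-3, was at 92.3, 157 and 71.3 CPM, against 70.6, 66.0 and 18.4 CPM, with a difference of 0.34 in mouse 1 and 1.52 in mouse 3. Lag3, another inhibitory receptor, was at 224, 372 and 175 CPM, against 214, 188 and 113 CPM, and overlapped. Tox, a transcription factor of exhausted T cells, was at 196, 291 and 182 CPM, against 279, 201 and 155 CPM, and overlapped. Gzmb, the protease granzyme B, was at 914, 1188 and 983 CPM, against 682, 699.9 and 746 CPM, a difference of 0.40 with no overlap. Jaml itself was at 104, 126 and 94.0 CPM, against 68.4, 66.7 and 98.5 CPM, a difference of 0.24 with overlap. Itgae, the integrin chain CD103, had no UMI in the 80 cells, which allows a share of cells with a UMI of up to 3.75%. In subcluster 8 its levels were 2.17, 2.56 and 5.10 CPM. Tcf7, a transcription factor of memory-like cells, was at 7.10, 7.66 and 149 CPM in subcluster 14, with UMIs in 8 of the 80 cells, 6 of them from mouse 3. In subcluster 8 it was at 14.5, 48.1 and 60.7 CPM.

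Against subcluster 5, the largest subcluster of the Pdcd1 cluster, 97 of 2940 genes were higher in subcluster 14 (3.3%) and 6 were lower (0.204%). Of these, 93 and 3 also passed in mouse 2. On mouse 1 alone 97 were higher and 11 lower, and on mouse 3 alone 251 and 142. The comparison shares the values of subcluster 14 with the one against subcluster 8. Of 43 G2 and M phase genes compared, 38 were higher, with a median difference of 2.65. Cenpf stood at 244, 387 and 441 CPM in subcluster 14, against 5.66, 5.99 and 1.15 CPM in subcluster 5 (difference 4.68). Cdc20 differed by 4.19, with 9.73, 13.7 and 11.5 CPM in subcluster 5. Ube2c differed by 4.11, with 49.9, 35.1 and 25.4 CPM there. Birc5, survivin of the chromosomal passenger complex, stood at 609, 639.8 and 729.7 CPM in subcluster 14, against 41.8, 38.5 and 27.7 CPM in subcluster 5. Genes such as Cenpf, Cdc20, Ube2c and Birc5 reached the minimum level only through subcluster 14, which largely fixed their direction. The summed level of all 56 genes of the list, taken without a minimum, was 2544, 2686 and 2074 CPM in subcluster 5, below subcluster 14 in every mouse. Of 6 histones compared 3 were higher (median 1.47), and none of 19 S phase genes passed (median -0.38). Of 15 spindle, actin and tubulin genes 6 were higher.

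The 6 genes lower than in subcluster 5 were Ccl1, Gzme, Tnfrsf4, Igfbp7, Bcl2 and Kcnq1ot1. Tnfrsf4, the costimulatory receptor OX40, stood at 54.6, 126 and 32.4 CPM in subcluster 14, against 151, 277 and 331 CPM in subcluster 5, a difference of -2.16 without overlap. Bcl2, which protects cells from apoptosis, was at 41.9, 34.5 and 42.2 CPM, against 135, 61.2 and 94.7 CPM (-1.25). Bcl2 passed under 11 of 15 alternative settings and Tnfrsf4 under all 15, of which some only relax the rule and could not undo a call. Igfbp7, a secreted binding protein, was at 15.6, 88.1 and 16.2 CPM, against 52.1, 105 and 114 CPM, and overlapped. The chemokine Ccl1 was at 35.5, 15.3 and 0 CPM, against 119, 385 and 204 CPM, with 31 of its 54 UMIs in 1 cell. Granzyme E (Gzme) had UMIs in only 1 cell of subcluster 14, from mouse 2, and stood at 11.5, 226 and 152 CPM in subcluster 5. Pdcd1 and the other checkpoint genes did not pass against subcluster 5, with 0 of 9 called and a median of -0.65. Pdcd1 was at 339, 340.3 and 367 CPM in subcluster 5.

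**Figure D5:**
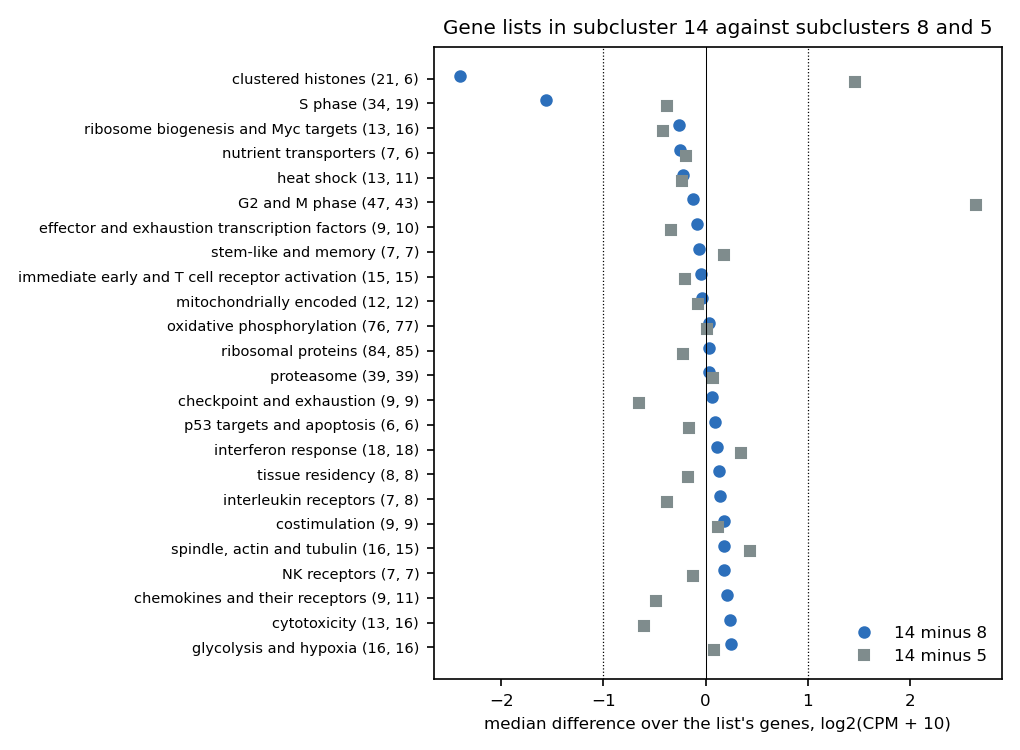
Median log2 difference of CPM plus 10 of 24 gene lists, subcluster 14 against subcluster 8 (circles) and against subcluster 5 (squares), with the number of genes compared in brackets. Histones and S phase genes lay at -2.41 and -1.57 against subcluster 8, the G2 and M phase list at -0.12, while against subcluster 5 the G2 and M phase list lay at 2.65.

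Against all other cells, 131 of 3211 genes were higher in subcluster 14 (4.08%) and 296 were lower (9.22%), of which 124 and 275 also passed in mouse 2. On mouse 3 alone 216 genes were higher. The genes with the largest positive differences were again mitotic, led by Cdc20 (3.70), Ccnb2 (3.61), Cenpa (3.19), Ube2c (3.13) and Cdkn3 (3.12). Of 42 G2 and M phase genes compared 32 were higher (median 2.10), and of 15 CD8 T cell genes 9 were higher (median 1.25). Any gene that reached the minimum level only through subcluster 14 had its direction largely fixed by that. Among 9 checkpoint genes 4 were higher (median 0.98). Pdcd1 stood at 302, 345 and 156 CPM in subcluster 14, against 88.4, 62.0 and 40.4 CPM in all other cells. Gzmb was at 914, 1188 and 983 CPM, against 310.0, 235 and 292 CPM. Perforin (Prf1) was at 343, 1015 and 489.7 CPM, against 143, 148 and 72.2 CPM. Lower genes were led by Siglech, a lectin of plasmacytoid dendritic cells, at 2.13, 3.83 and 3.24 CPM, against 419.9, 272 and 404 CPM, and by Ly6d (-5.05). All 11 plasmacytoid, all 5 type 1 and all 7 type 2 dendritic cell genes compared were lower, and so were all 7 class II antigen presentation genes (median -4.03). Against subcluster 8 only 1, 1 and 0 genes of these dendritic cell lists reached the minimum level for comparison. They were thus compared here almost only through their level in all other cells, which largely fixed the direction. In other lists, 8 of 9 macrophage and monocyte genes and 1 of 2 mature migratory dendritic cell genes were lower. Of 4 NK cell genes 2 were lower and 1 was higher. Jaml, the gene of the sort marker, was lower too, at 104, 126 and 94.0 CPM, against 247, 212 and 244 CPM (-1.23). With mouse 2 included in the rule Jaml did not pass. Among the 16 subclusters, subcluster 14 ranked 14th for Jaml.

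Markers of other cell types were present at low levels and in 1 case came from a single cell. The macrophage and monocyte list summed to 116, 76.6 and 587 CPM in subcluster 14 of mice 1, 2 and 3, against 109.7, 112 and 218 CPM in subcluster 8. In mouse 3, 1 cell with 32397 UMIs held 156 of the 181 UMIs of the list (86.2%). It also held 71.9% of the class II UMIs, with 220 UMIs of Cd74, beside 19 of Cd8a, 27 of Cd3d and 26 of Mki67. Without that cell the macrophage list of mouse 3 summed to 90.6 CPM, against 587 CPM with it, and the class II list to 714 CPM, against 2273 CPM with it. The plasmacytoid list stood at 251, 234 and 243 CPM in subcluster 14 and 261, 295 and 276 CPM in subcluster 8. The NK cell list stood at 469.8, 544 and 752 CPM in subcluster 14 and 532, 489 and 661 CPM in subcluster 8, and without the single cell mouse 3 stood at 464 CPM. The B and plasma cell list stood at 78.1, 3.83 and 208 CPM in subcluster 14 and 51.8, 68.6 and 123 CPM in subcluster 8. Of that list Ighm had UMIs in 44 of the 80 cells and Cd79a in none. The part of these markers in the results was not tested beyond the removal of cells. At least 2 UMIs of Cd79a, Lyz2 and C1qa together were found in 40 of 80 cells of subcluster 14, 155 of 327 of subcluster 8 and 208 of 449 of subcluster 5. Without the single cell, 7 genes were higher and 78 lower than in subcluster 8. Of these, 6 and 70 were among the calls made with it.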

How the data were processed

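CD45+JAML+ cells from the tumours of 3 mice went through 10x Genomics droplets. The authors deposited counts of UMIs per gene and cell without normalization, and the deposited annotation gives each cell's hashtag, cluster numbers and percent of mitochondrial UMIs. Cell Ranger 3.1.0, the mm10 genome and Seurat 3.1.5 are named in the submitters' processing notes. How cells were filtered and clustered, and whether counting used strand, is not given in the sources used here. The labels call the sorted cells both T cells and, in the protocol, TREG cells. Foxp3 has no row in the table, so that name could not be checked with it.

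UMIs were summed per mouse (hashtag) and class and scaled to CPM, which was computed here. Values per mouse do not use the 8 cells that lack a hashtag. Genes with at least 50 CPM in either class were compared, and a difference of at least 2-fold on the log2(CPM + 10) scale in every mouse with at least 10 cells of both classes was called. Since clusters share the data that made them, no test was run. The 95% intervals of shares are exact (Clopper-Pearson). For a count of 0 the limit is 3 counts. Both cover counting error only. Every hashtag is 1 mouse and the only level of replication, and 2 mice bear on each call.

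The text names up to 12 genes per direction and comparison with the largest mean difference, up to 4 members per list, the marker genes and a fixed set. Scd2, Acsl5, Rrm1, Mcm5, Aurkb, Cdkn3, Knstrn and Gm17745 were named after their values were seen, as were Prf1, Ccl4, Xcl1 and Gzmc. The members and gene lists were chosen with earlier results of these data known. Scripts were tested on simulated data. Alternatives were TMM factors (edgeR 4.0.16) and RLE size factors (DESeq2 1.42.0) in R 4.3.3, a pseudocount of 1, other filters and folds, pooled mice, thinned or depth-matched cells, removal of cells with UMIs of other lineages, and each mouse left out. Gene places come from the GENCODE annotation of GRCm38. Python 3.11.15, numpy 2.4.6, scipy 1.17.1 and pandas 2.3.3 were used.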

Additional observations from a re-analysis of the deposited data

How the results depend on the processing

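Relative to subcluster 8 (6 higher, 71 lower), a minimum of 200 CPM gave 16 lower genes, no filter 113, a 1.5-fold rule 34 higher and 169 lower, and pooling the mice 12 higher. Leaving out cells with at least 2 UMIs of other lineages gave 20 higher and 111 lower. Each mouse left out in turn gave 14 to 96 higher and 92 to 182 lower, where only 1 mouse was left to decide each call (14 and 92 for mouse 1, 96 and 182 for mouse 3). Compared with subcluster 5 (97 higher, 6 lower), 200 CPM gave 37 higher and 1 lower. The lower count was 12 with a pseudocount of 1, 20 with no filter, 46 at 1.5-fold, 3 with at least 3 cells, 11 pooled, 10 thinned and 26 without the lineage-UMI cells. Mice left out gave 97 to 251 higher and 11 to 142 lower. Compared with all other cells (131 higher, 296 lower), 200 CPM gave 58 and 78, no filter 600 lower and 1.5-fold 313 higher, and mice left out 179 to 216 higher and 362 to 384 lower. The share of subcluster 14 was 1.34% of all tagged cells and 9.38% of the Pdcd1 cluster. Mki67 was in 93.8% of its cells as deposited and 85.3% thinned. Of 2303 values of named genes, 1999 moved by less than the spread between mice and 304 by more. None changed direction after a call. The 1999 include settings that could not move a value further. Those that change only the filter or the fold leave a difference as it is. Leaving out mouse 1 or 3 moves the mean of both only within their spread.

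2 alternatives were chosen after seeing the data. Against only the cells of subcluster 8 in the cluster numbered 7 at resolution 0.4, 2 genes were higher, and 2 of the 6 and 64 of the 71 calls were kept. Removing the mouse 3 cell with most macrophage UMIs kept 6 and 70. With cells of subcluster 8 matched on UMIs, 3 of the 6 higher and 65 of the 71 lower calls were kept. The histone and S phase lists had medians at least 2-fold lower in every alternative run. Depth and the small number of cells limit genes under 50 CPM, and 2 mice decide each call. Every log2 difference except the pooled one was taken within a mouse and was thus paired by mouse. The CPM ratios and their intervals used UMIs summed over mice 1 and 3 and were not paired. No test was run on any comparison.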

Other observations

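Several effector genes were spread unevenly over the cells of subcluster 14. Ccl4, a chemokine, stood at 899, 4605 and 723 CPM in mice 1, 2 and 3. It had UMIs in 72 of the 80 cells, and the cell with most held 10.7%, 71.7% and 45.7% of its UMIs in mice 1, 2 and 3. Xcl1, a chemokine for XCR1, stood at 375, 107 and 2124 CPM, with UMIs in 44 cells and 23.6%, 89.3% and 88.4% of them in 1 cell of each mouse. Gzmc (granzyme C) stood at 407, 238 and 6.49 CPM, with UMIs in 23 cells. In mice 1 and 2, 1 cell each held 86.6% and 91.9% of its UMIs, and in mouse 3 it had 2 UMIs in all.

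T cell receptor V segments were sparse. In the 58 cells of mouse 1, 27 UMIs of alpha chain V segments were counted, of which 51.9% were Trav14d-3-dv8, found in 10 cells. Mouse 2 had no UMI of an alpha segment, and in mouse 3 the leading segment, Trav10n, held 15% of 20 UMIs. Of gamma or delta segments Trgv2 led, with 44, 11 and 3 UMIs in 16, 3 and 2 cells of mice 1, 2 and 3. It also led in subcluster 8, with 169, 29 and 28 UMIs, and in subcluster 5, with 242, 63 and 10. The beta segment with most UMIs was Trbv3 in mouse 1 (18.8% of the beta UMIs), Trbv2 in mouse 2 (64.7% of 17) and Trbv19 in mouse 3 (40.0% of 10). In subcluster 8 the leading beta segments were the same in each mouse, at 15.3%, 51.8% and 39.1%. In subcluster 5 Trbv2 led in all 3 mice, at 20.1%, 66.9% and 25%. Near-identical V segments share reads, so these shares are uncertain.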
